A study of Drosophila melanogaster with 10 samples.

Results

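The genes described here encode proteins of the large subunit of the mitochondrial ribosome of Drosophila melanogaster. Members were all genes whose annotated symbol is mRpL followed by a digit, on probe sets that name 1 gene. This gave 44 genes, of 11982 genes that such probe sets name, on 45 of 18952 probe sets in the table. A gene with more than 1 probe set was represented by the one with the highest mean over the 10 arrays. The choice used names and overall level, not the comparison, but it was made with earlier results of these data known. The RefSeq annotation holds 47 such genes. mRpL53 shares its probe set with another gene and is not analysed here, and mRpL34 and mRpL37 are not analysed here either.

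Messenger RNA was measured in SL2 cells, an established male cell line from Drosophila embryos, with 1 array per sample. Except in 1 group, cells were treated with 10 µg of double-stranded RNA (dsRNA) and kept at 26 °C, and RNA was taken after 7 days. For that group, without dsRNA, the labels give no time or temperature. The groups were construct M2 against MBD-R2 (3 arrays), construct M1 against MBD-R2 (3 arrays), cells without dsRNA (1 array) and dsRNA against GST (3 arrays), which serves as the control. MBD-R2 belongs to the NSL complex, which contains the histone acetyltransferase MOF and acts at promoters of widely expressed genes. Its own transcript is not analysed here, so how far it was depleted is not known here, and knockdown in the text stands for dsRNA against it. All values come from 1 cell line in bulk, in which fewer cells of a type and less RNA per cell cannot be told apart. Precision is limited by how few arrays each group has.

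Mitochondria carry their own small genome, and the few proteins it encodes, subunits of the oxidative phosphorylation complexes in animals, are made on a ribosome of their own. The RNA of this ribosome is transcribed in the mitochondrion, whereas its proteins are encoded in the nucleus, made in the cytosol and imported. The large subunit joins amino acids at the peptidyl transferase centre and lets the new chain out through a tunnel. Some of its proteins descend from bacterial ribosomal proteins, and others were added during the evolution of mitochondria. Among the members 28 are homologues of bacterial proteins and 16 are specific to mitochondria. Positions of proteins in the ribosome are given below from structures of bacterial and mammalian ribosomes.

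All 12 hemocyte markers examined, genes of the blood cell type that SL2 cells resemble, lay over 1 log2 unit above the lowest value in the table (2.22). Their summed log2 level was 147.3 to 155.0 in knockdown arrays, 149.3 without dsRNA and 148.9 to 150.6 in GST arrays. Within the list NimC1 averaged 11.43 in knockdown arrays and 9.22 in GST arrays, and Pxn 13.67 in knockdown arrays and 14.26 in GST arrays. The measured fat body (5), muscle (4) and follicle cell (3) markers were within 1 log2 unit of that lowest value. Of 4 neuron and glia markers repo and nSyb lay at it, while elav and brp did not, and the list summed to 18.7 to 20.7 in knockdown arrays, 17.2 without dsRNA and 16.6 to 17.7 in GST arrays. Of 4 germline markers bgcn and bam were within 1 log2 unit of the lowest value and aub and osk were not, with sums of 16.6 to 23 in knockdown arrays, 16.3 without dsRNA and 15.4 to 16.9 in GST arrays. Among these osk averaged 5.25 in knockdown arrays and 2.41 in GST arrays, and aub 8.42 in knockdown arrays and 9.33 in GST arrays. The part of these markers in the results was not tested. Replicate 3 of the 3 dsRNA groups stood apart from replicates 1 and 2 over all tested probe sets. Deviations from the group mean correlated at -0.89 to -0.54 across these 2 sets of arrays and at 0.34 to 0.93 within them. Results are therefore also given within the sets.

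M2 and M1 were compared with GST to ask which transcripts depend on MBD-R2. Of the 44 mRpL genes, 33 fell with knockdown and 0 rose (limma, adjusted p under 0.05). In 27 of the 33 the estimated fall was more than 2-fold, a size not itself tested. Over all 7298 tested probe sets 17.4% fell, 7.85% rose and 11.4% fell with an estimate of more than 2-fold. The median log2 fold change of the members was -1.18, with quartiles of -1.65 and -0.75, against a median of -0.03 over all tested probe sets. In 34 members each of the 6 knockdown arrays lay below each of the 3 GST arrays, as did 21.7% of all tested probe sets, and in 0 members the reverse held (10.7% of all). All 44 passed the filter on low values, a mean log2 level of at least 4 over the 10 arrays. Under knockdown 0 members averaged within 1 log2 unit of the table's minimum, and the lowest value of a member in a knockdown array was 4.17. Whether single probe sets have a lower limit of their own above that minimum was not tested.

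**Figure D1:**
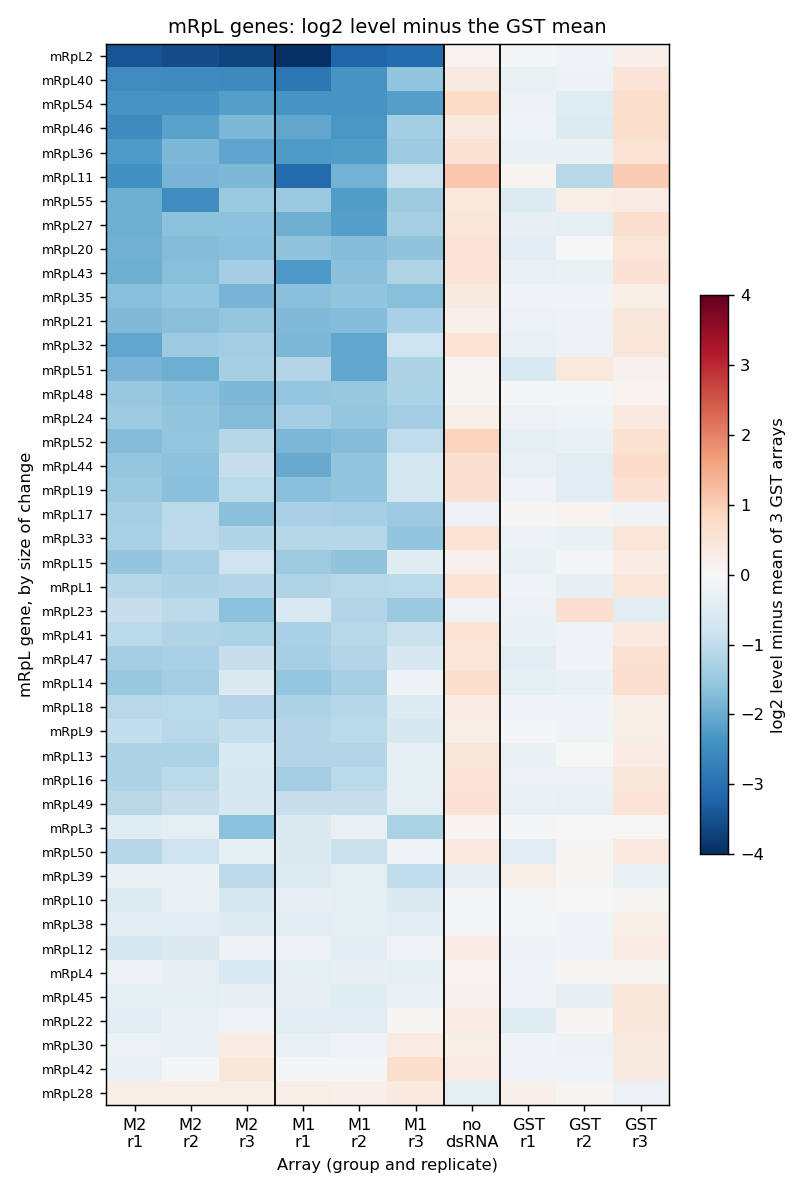
Each cell is the log2 level of 1 of the 44 mRpL genes (rows, by size of change) in 1 array (columns), minus the mean of the 3 GST arrays. Blue is lower. The 6 MBD-R2 dsRNA arrays on the left are blue for most genes, deepest for mRpL2, and near 0 or pale red for mRpL30, mRpL42 and mRpL28 at the bottom.

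In the central protuberance, where the large subunit meets the small one and the transfer RNAs, all 5 members fell, with a median of -1.55. These were mRpL40, mRpL46, mRpL48, mRpL18 and mRpL38. mRpL40, a mitochondria-specific protein gene, had log2 levels of 5.20, 5.15 and 5.13 in M2 arrays and 4.79, 5.30 and 6.09 in M1 arrays, against 7.37, 7.46 and 8.18 in GST arrays. Its log2 fold change was -2.39 ± 0.30 (SE, adjusted p = 0.000712), and the groups did not overlap. The highest knockdown value was M1 replicate 3, and the highest GST value was replicate 3 as well. mRpL46, also specific to mitochondria, had 5.53, 5.91 and 6.24 in M2 arrays and 5.96, 5.72 and 6.69 in M1 arrays, against 7.89, 7.51 and 8.74 in GST arrays. It changed by -2.04 ± 0.33 (SE, adjusted p = 0.0026), with both knockdown groups below all GST arrays and replicate 3 highest in M2, M1 and GST alike. mRpL48 (-1.55 ± 0.13) and mRpL18 (-1.04 ± 0.18), a homologue of the bacterial protein that carries 5S ribosomal RNA, fell as well. mRpL38 fell least of the 5, with 8.34, 8.32 and 8.25 in M2 arrays and 8.33, 8.38 and 8.34 in M1 arrays, against 8.71, 8.60 and 9.0 in GST arrays. The 6 knockdown arrays spanned 8.25 to 8.38, all below the lowest GST array at 8.60, and the change was -0.44 ± 0.13 (SE, adjusted p = 0.0369). Its call was lost in 8 of 9 fits that each left out 1 array, all except the one without GST replicate 2.

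At the stalks, the mobile arms that guide transfer RNAs and bind translation factors, 4 of 5 members fell. mRpL1, the protein of the L1 stalk, changed by -1.15 ± 0.18 (SE, adjusted p = 0.00248), with knockdown arrays between 7.89 and 8.02 and GST arrays between 8.79 and 9.59. mRpL54, a mitochondria-specific protein near the base of the L10/L12 stalk, had 4.19, 4.19 and 4.35 in M2 arrays and 4.20, 4.19 and 4.36 in M1 arrays, against 6.36, 6.06 and 7.25 in GST arrays. Knockdown arrays differed from each other by less than GST arrays did, and the change was -2.31 ± 0.25 (SE, adjusted p = 0.000353). Whether these near-equal knockdown values lie at a lower limit of the probe set, here and in the comparison of array sets below, was not tested. mRpL11, at the base of the same stalk, had 5.01, 5.56 and 5.62 in M2 arrays and 4.36, 5.53 and 6.53 in M1 arrays, against 7.54, 6.30 and 8.43 in GST arrays. Here the groups overlapped, since M1 replicate 3 (6.53) exceeded GST replicate 2 (6.30). The fold change was -1.99 ± 0.56 (SE, adjusted p = 0.033), the call was lost in 5 of 9 fits that left out 1 array, and neither construct passed alone. mRpL10, which holds the L12 copies, fell by less, at -0.46 ± 0.13 (SE, adjusted p = 0.0342), and lost its call in 7 of those 9 fits. mRpL12, the stalk protein that recruits translation factors, had 10.02, 10.14 and 10.47 in M2 arrays and 10.47, 10.26 and 10.55 in M1 arrays, against 10.49, 10.58 and 11.05 in GST arrays. Its groups overlapped slightly and the change of -0.39 ± 0.18 (SE, adjusted p = 0.154) did not pass, with a 95% interval of -0.79 to 0.02. In the fit blocked by replicate number its adjusted p was 0.0318.

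Around the peptidyl transferase centre, where peptide bonds form, 3 of 5 members fell, with the widest range of any site. mRpL2, one of the most conserved ribosomal proteins, had 4.72, 4.64 and 4.47 in M2 arrays and 4.17, 4.99 and 5.09 in M1 arrays, against 8.13, 8.02 and 8.39 in GST arrays. The 6 knockdown arrays reached at most 5.09 and the GST arrays at least 8.02, a change of -3.50 ± 0.22 (SE, adjusted p = 3.49e-05). This is the largest fall of the 44 members, to 8.84% of the GST level on the linear scale. In the array without dsRNA mRpL2 had 8.29. mRpL27, whose bacterial homologue reaches into the centre, had 7.23, 7.53 and 7.55 in M2 arrays and 7.21, 6.98 and 7.84 in M1 arrays, against 8.86, 8.82 and 9.85 in GST arrays. It changed by -1.79 ± 0.28 (SE, adjusted p = 0.00255) without overlap, and replicate 3 was the highest of each group. mRpL16 fell by less, -0.96 ± 0.28 (SE, adjusted p = 0.037), and neither construct passed alone. mRpL4, which lines the start of the tunnel, had 9.42, 9.34 and 9.06 in M2 arrays and 9.30, 9.34 and 9.31 in M1 arrays, against 9.56, 9.70 and 9.72 in GST arrays. All knockdown arrays were below all GST arrays, yet the change of -0.36 ± 0.13 (SE, adjusted p = 0.0713) did not pass in the fit without a block, and had an adjusted p of 0.0414 in the blocked fit. mRpL3, which sits near the centre as well, did not pass either at -0.77 ± 0.32 (SE, adjusted p = 0.118), and had an adjusted p of 0.0275 with that block. It is taken up again below, because its change differed between the sets of arrays.

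**Figure D2:**
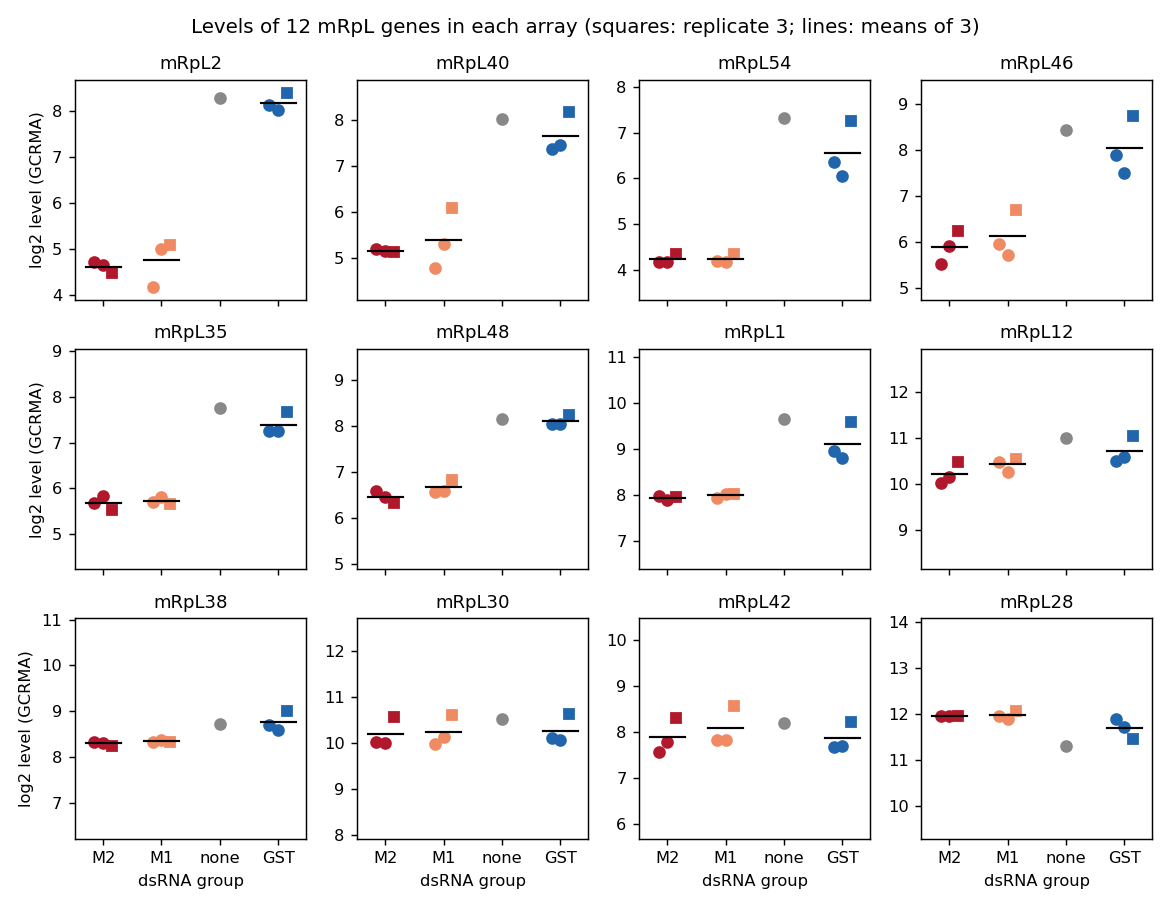
Log2 level (vertical axis, each panel spanning 4.8 log2 units) of 12 mRpL genes in each array, by group. Squares mark replicate 3, circles the other arrays and lines the mean of 3 arrays. mRpL2 lies at 4.17 to 5.09 in the MBD-R2 dsRNA arrays and at 8.02 to 8.39 in GST arrays, whereas the groups overlap for mRpL30 and mRpL42.

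Along the exit tunnel 6 of 8 members fell, with a median of -1.25. The members that fell were mRpL32 (-1.61 ± 0.33), mRpL24 (-1.52 ± 0.17), mRpL44 (-1.39 ± 0.37), mRpL17 (-1.36 ± 0.16), mRpL23 (-1.15 ± 0.31) and mRpL47 (-1.12 ± 0.27), a homologue of bacterial L29. For mRpL47 a second probe set gave -1.20 ± 0.14 (adjusted p = 0.000495). mRpL44 passed with M1 (adjusted p = 0.0481) and not with M2 (adjusted p = 0.0584), although its M2 minus M1 difference was 0.05 ± 0.42 (SE). mRpL23 passed with neither alone. The other 2 members, both with overlapping groups, did not pass. mRpL22, which lines the tunnel, had 9.32, 9.47 and 9.61 in M2 arrays and 9.31, 9.32 and 9.79 in M1 arrays, against 9.25, 9.79 and 10.18 in GST arrays. The lowest of all these arrays was GST replicate 1, and the change was -0.27 ± 0.22 (SE, adjusted p = 0.447). mRpL45, which in mammals helps to hold the ribosome at the inner membrane, had 8.42, 8.37 and 8.44 in M2 arrays and 8.44, 8.27 and 8.49 in M1 arrays, against 8.64, 8.44 and 9.22 in GST arrays. It was nearly level across knockdown arrays, and GST replicates 1 and 3 stood above all of them, while GST replicate 2 did not. Its change was -0.36 ± 0.18 (SE, adjusted p = 0.195), with an interval of -0.78 to 0.06.

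Of the 12 other homologues of bacterial proteins 9 fell, with a median of -1.22. mRpL36, a very small protein that binds ribosomal RNA in bacteria, had 6.02, 6.49 and 6.16 in M2 arrays and 6.02, 6.06 and 6.84 in M1 arrays, against 8.0, 8.0 and 8.84 in GST arrays. All knockdown arrays were below all GST arrays, and the change was -2.02 ± 0.27 (SE, adjusted p = 0.00107). mRpL20, an early assembly protein in bacteria, had 6.55, 6.75 and 6.81 in M2 arrays and 6.85, 6.74 and 6.87 in M1 arrays, against 8.02, 8.44 and 8.95 in GST arrays. The M2 and M1 arrays lay within 6.55 to 6.87, and the change was -1.71 ± 0.20 (SE, adjusted p = 0.000557). mRpL35 (-1.68 ± 0.15), mRpL21 (-1.63 ± 0.20), mRpL19 (-1.37 ± 0.30), mRpL15 (-1.21 ± 0.29), mRpL9 (-0.99 ± 0.16) and mRpL13 (-0.97 ± 0.25) fell too, mRpL13 passing with M2 (adjusted p = 0.0428) and not with M1 (adjusted p = 0.0659), at an M2 minus M1 difference of -0.13 ± 0.29 (SE). mRpL33, of which the bacterial homologue is a small protein near the exit site of transfer RNA, had 9.64, 9.89 and 9.71 in M2 arrays and 9.78, 9.78 and 9.36 in M1 arrays, against 10.71, 10.66 and 11.41 in GST arrays. It changed by -1.23 ± 0.20 (SE, adjusted p = 0.00308), and M2 lay 0.11 ± 0.24 (SE) above M1, the highest such difference among the members. mRpL14 had a change of -1.09 ± 0.39 (SE, adjusted p = 0.0756). With M1 replicate 3 (8.76) above GST replicates 1 and 2, it did not pass, but had an adjusted p of 0.000355 in the blocked fit.

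The remaining 2 of this class, mRpL30 and mRpL28, did not pass and had changes near 0 or above. mRpL30 had 10.03, 10.01 and 10.56 in M2 arrays and 9.99, 10.13 and 10.61 in M1 arrays, against 10.11, 10.07 and 10.64 in GST arrays. In each group replicate 3 was high and replicates 1 and 2 were low. The groups also overlapped within replicates 1 and 2, and the change was -0.05 in both sets of arrays. The fit gave -0.05 ± 0.22 (SE, adjusted p = 0.901) and an interval of -0.56 to 0.45. mRpL28 had 11.95, 11.95 and 11.95 in M2 arrays and 11.96, 11.88 and 12.06 in M1 arrays, against 11.88, 11.72 and 11.44 in GST arrays. Its knockdown arrays reached down to 11.88, equal to the highest GST array at this precision, and the change of 0.28 ± 0.13 (SE, adjusted p = 0.178) did not pass. For both genes the interval lies above a 2-fold fall. The estimate for mRpL30 was 0.13 without GST replicate 3, and that for mRpL28 was 0.156 to 0.377 in the 9 fits that left out 1 array.

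Of the 9 other mitochondria-specific genes 6 fell, with a median of -1.15. mRpL55 had 7.83, 7.32 and 8.29 in M2 arrays and 8.29, 7.56 and 8.37 in M1 arrays, against 9.23, 10.02 and 10.12 in GST arrays. The highest knockdown array was M1 replicate 3 at 8.37 and the lowest GST array was 9.23, a change of -1.85 ± 0.31 (SE, adjusted p = 0.00309). M2 was 0.25 ± 0.35 (SE) below M1, the lowest M2 minus M1 difference of any member. mRpL43 had 6.47, 6.73 and 7.07 in M2 arrays and 6.13, 6.76 and 7.21 in M1 arrays, against 8.12, 8.14 and 9.0 in GST arrays. It changed by -1.69 ± 0.30 (SE, adjusted p = 0.00414) with no overlap, and replicate 3 was high in M2, M1 and GST. mRpL51 (-1.60 ± 0.30), mRpL52 (-1.49 ± 0.28), mRpL41 (-1.15 ± 0.18) and mRpL49 (-0.82 ± 0.24) also fell, mRpL49 with neither construct alone. mRpL50 had a change of -0.67 ± 0.25 (SE, adjusted p = 0.0903) and mRpL39 of -0.58 ± 0.23 (SE, adjusted p = 0.109). Neither passed, and in the blocked fit mRpL50 had an adjusted p of 0.00877 and mRpL39 of 0.00658. mRpL42, which older annotation counted with the small subunit, had 7.58, 7.79 and 8.32 in M2 arrays and 7.84, 7.84 and 8.58 in M1 arrays, against 7.69, 7.71 and 8.22 in GST arrays. Knockdown and GST arrays overlapped and the change was 0.12 ± 0.25 (SE, adjusted p = 0.8), with an interval of -0.46 to 0.69. It was -0.007 without M1 replicate 3.

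**Figure D3:**
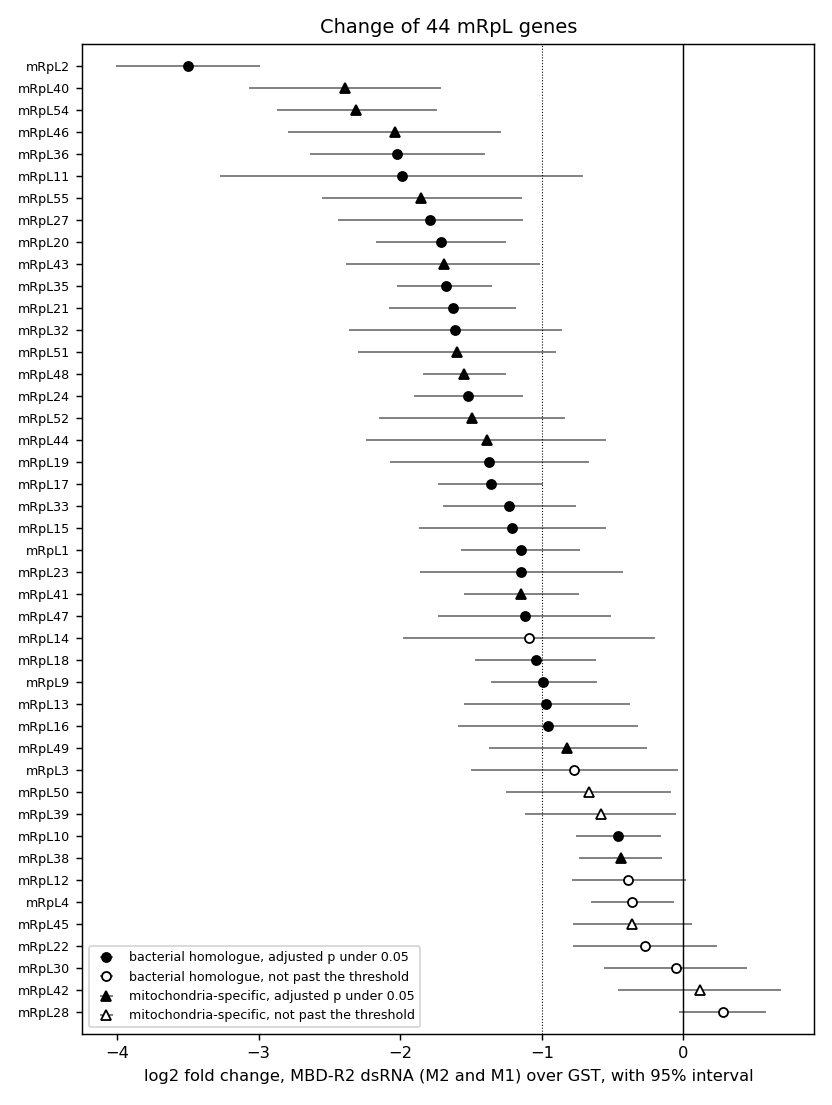
Log2 fold change of MBD-R2 dsRNA (M2 and M1 together, 6 arrays) over GST (3 arrays) for the 44 mRpL genes, with 95% intervals from limma. Filled symbols passed an adjusted p of 0.05, circles are homologues of bacterial proteins, triangles are specific to mitochondria, and the dotted line marks a 2-fold fall. Changes run from -3.50 for mRpL2 to 0.28 for mRpL28.

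By origin, 12 of 16 mitochondria-specific genes fell (median -1.44) and 21 of 28 homologues of bacterial proteins (median -1.15). Both classes spanned most of the range, from -2.39 to 0.12 and from -3.50 to 0.28. Of the 11 members that did not pass, 7 had intervals above a 2-fold fall (mRpL12, mRpL4, mRpL45, mRpL22, mRpL30, mRpL42 and mRpL28). The intervals of the other 4 (mRpL14, mRpL3, mRpL50 and mRpL39) reached a 2-fold fall, which these arrays therefore do not exclude. In the fit blocked by replicate number 39 members fell, the 33 named as falling above together with mRpL12, mRpL4, mRpL14, mRpL3, mRpL50 and mRpL39, while 25.7% of all probe sets fell in that fit. Of the 33 calls 24 held in all 9 fits that left out 1 array, which called 25 to 32 members.

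The other 9 calls were lost when single arrays were left out, as given above for mRpL38. mRpL15 was lost without GST replicate 2 or GST replicate 3. mRpL23 was lost without M1 replicate 2, GST replicate 1 or GST replicate 2. mRpL11 and mRpL44 were each lost without M2 replicate 1, M2 replicate 2, M1 replicate 2, GST replicate 1 or GST replicate 3. mRpL13 was lost without any 1 of replicates 1 and 2 of M2 and M1 or of GST replicates 2 and 3. mRpL16 and mRpL49 were each lost without any 1 of replicates 1 and 2 of M2 and M1 or of the 3 GST arrays. mRpL10 was lost without M2 replicate 1, M2 replicate 3, M1 replicate 2, M1 replicate 3 or any 1 of the 3 GST arrays. All 9 genes passed in the fit blocked by replicate number.

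The counts also depend on how arrays were scaled. Quantile normalisation and median centring each left 31 members lower, with 15.2% and 15.9% of all probe sets. When each array was centred on its spike-in controls, 1 member (mRpL2) and 1.51% of all probe sets passed as lower, with a member median of -0.97 against 0.18 over all probe sets. Such centring shifts all probe sets of an array by 1 amount, so the distance between these medians is the same as in the deposited scaling by construction. After spike-in centring the SE was 0.773 for every member, against 0.13 to 0.56 in the deposited scaling, so fewer changes could pass. Spike-in medians were 10.99 to 12.34 in knockdown arrays and 10.66, 13.12 and 10.84 in GST arrays. Without GST replicate 2, whose spike-in median was the highest of all arrays, 29 members and 13.6% of all probe sets passed as lower after spike-in centring.

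M2 and M1 are separate dsRNA constructs against 1 transcript, so each was also set against GST alone. Of the 44 members 26 fell with M2 and 26 with M1, of which 25 fell with both. Over all tested probe sets 13.5% fell with M2, 14.7% with M1 and 12.8% with both. No member rose with either, against 5.32% of all tested probe sets with M2 and 5.67% with M1. The member medians were -1.20 for M2 and -1.16 for M1, against -0.01 and -0.05 over all tested probe sets. The comparisons share the GST arrays, so the likeness of these counts is not independent of them. A further 6 members (mRpL11, mRpL23, mRpL16, mRpL49, mRpL10 and mRpL38) passed with M2 and M1 together and with neither alone. These counts for single constructs change in the fit blocked by replicate number, in which 38 members fell with M2 (21.7% of all tested probe sets) and 36 with M1 (23% of all).

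Set directly against M1, M2 differed in 0 of the 44 members and in 0% of all tested probe sets (limma), and the alternatives run called 0 members. At an unadjusted p under 0.05 the counts were 0 members and 19 probe sets (0.26%). M2 lay below M1 in 36 of 44 members and in 3099 of all 7298 tested probe sets. The median difference of the members was -0.07, which became 0.37 after spike-in centring. The differences ranged from -0.25 to 0.11 with a median SE of 0.28. For 37 members the 95% interval of the difference lay within 1 log2 unit of 0, and for 8 within 0.5 units. For mRpL2 the interval was -0.73 to 0.45. For those 37 a 2-fold difference lay outside the interval, and inside it for the other 7.

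**Figure D4:**
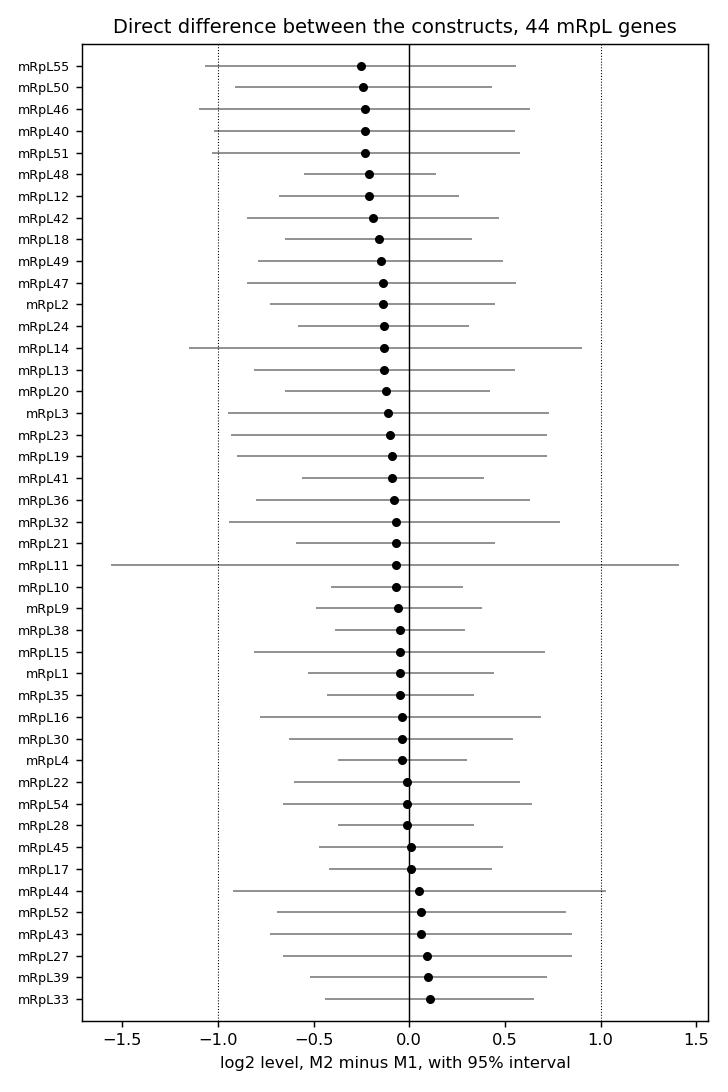
Direct difference of the log2 level, M2 minus M1 (3 arrays each), for the 44 mRpL genes, with 95% intervals from limma. The dotted lines mark a 2-fold difference. Estimates lie between -0.25 (mRpL55) and 0.11 (mRpL33), and every interval includes 0.

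Cells without dsRNA were set against GST as a background of dsRNA exposure. The labels give no time or temperature for them, so matched conditions cannot be assumed. The member median in this array was 0.36 above the GST mean, with 38 of 44 members above it (52% of all tested probe sets) and 21 above all 3 GST arrays (22.4% of all). Limma called 0 members and 0% of all tested probe sets, with 0 members and 68 probe sets (0.932%) at an unadjusted p under 0.05. The array lay close to GST replicate 3, from which the members differed by a median of -0.01. A lone array has no spread of its own, so the fit lends it that of the replicated groups.

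Within the GST group the members moved together. GST replicate 3 was higher than both other GST arrays in 39 of 44 members and lower than both in 4, against 42.4% and 38.8% of all tested probe sets. The member median relative to the GST mean was -1.16 in M2 replicate 3 and -1.34 and -1.28 in M2 replicates 1 and 2. In M1 it was -0.89 in replicate 3 and -1.32 and -1.26 in replicates 1 and 2. In GST it was 0.39 in replicate 3 and -0.22 and -0.16 in replicates 1 and 2. By this median every knockdown array lay below every GST array, and replicate 3 was the highest array of M2, of M1 and of GST. The members' median change was -1.45 within replicate 3, where 1 GST array is available, and -1.13 within replicates 1 and 2. Over all tested probe sets these medians were -0.12 and -0.0.

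To compare the sets of arrays, M2 and M1 were taken as 1 knockdown group, with each array counted as a replicate. Whether M2 and M1 arrays of the same number depend on each other within a set was not tested. The change in replicate 3 was then tested against that in replicates 1 and 2 for each gene. In 4 members, mRpL54, mRpL3, mRpL33 and mRpL1, it was larger in replicate 3, and in 0 it was smaller, against 5.39% and 4.52% of all tested probe sets that were more negative and more positive there. mRpL3 changed by -1.48 in replicate 3 and -0.42 in replicates 1 and 2, a difference of -1.06 ± 0.23 (SE, adjusted p = 0.0288). Its levels were 8.18, 8.31 and 7.04 in M2 arrays and 8.09, 8.36 and 7.41 in M1 arrays, against 8.61, 8.70 and 8.70 in GST arrays. The replicate 3 arrays of M2 and M1 were the lowest, while GST replicates 2 and 3 were equal at this precision. mRpL54 (-0.87 ± 0.17, adjusted p = 0.0222), mRpL33 (-0.96 ± 0.21, adjusted p = 0.03) and mRpL1 (-0.68 ± 0.16, adjusted p = 0.034) also differed, and in each of them GST replicate 3 was the highest GST array. This test has 1 GST array on 1 side, and leaving out single arrays moved its count to between 0 and 4, with 0 without M2 replicate 2, 1 without M2 replicate 1, M2 replicate 3, M1 replicate 2 or M1 replicate 3, and 2 without GST replicate 2.

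**Figure D5:**
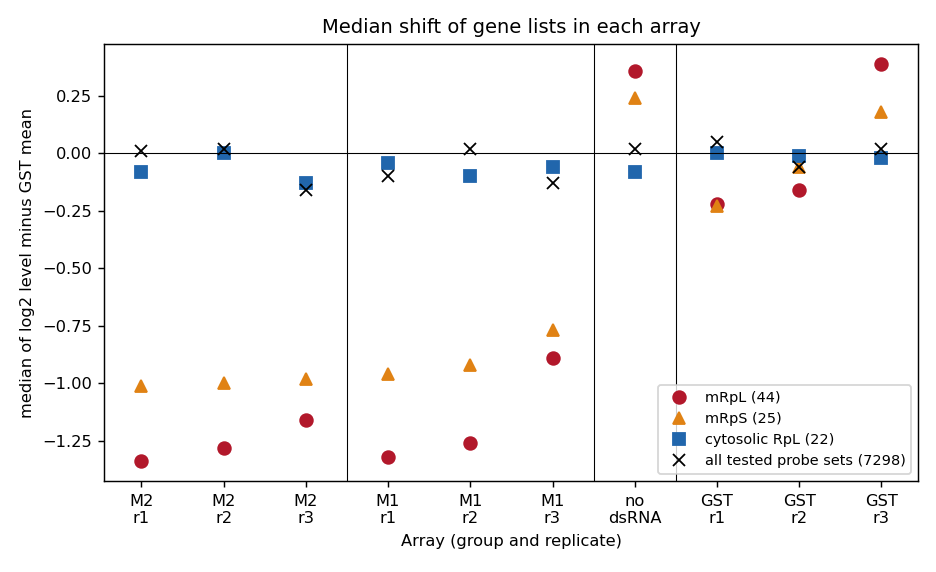
Median over the genes of each list of the log2 level minus the GST mean (vertical axis), by array. The mRpL genes (44, circles) lie between -1.34 and -0.89 in the 6 MBD-R2 dsRNA arrays, at 0.36 without dsRNA, and between -0.22 and 0.39 in GST arrays. The genes with cytosolic RpL symbols (22, squares) and all tested probe sets (7298, crosses) stay near 0.

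The members are spread over the X and both large autosomes. Of 8 members on the X 4 fell, with a median of -0.79, and of 36 on chromosomes 2 and 3 29 fell, with a median of -1.38. Over all 5906 tested genes, with 1 probe set each, 19.9% fell and 7.38% rose. By chromosome 13.7% fell on the X and 21.3% on chromosomes 2 and 3. The X-linked members that fell were mRpL33, mRpL16, mRpL49 and mRpL38. Those that did not pass were mRpL14, mRpL3, mRpL22 and mRpL30. By arm, 4 of 8 on the X, 6 of 8 on 2L, 5 of 6 on 2R, 8 of 11 on 3L and 10 of 11 on 3R fell. The shares over all tested genes were 13.7%, 21.7%, 20.1%, 20.5% and 22.6%, in that order. The difference between the X and the autosomes was not tested for the members.

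Genes of the small subunit, which decodes the messenger RNA, fell as well, here in the deposited scaling alone, as for the other lists below. Of the 44 large subunit genes 33 fell (75%), and of 25 mRpS genes 17 fell (68%) and 0 rose, with a median of -0.91. The difference between the subunits was not tested. For this list and those below, the shares over all 5906 tested genes were 19.9% lower and 7.38% higher. mRpS28 (-2.16 ± 0.18), mRpS18B (-1.47 ± 0.12), mRpS18C (-2.57 ± 0.26) and mRpS17 (-2.45 ± 0.32) had the smallest adjusted p. Of 9 tested mitochondrial aminoacyl-tRNA synthetase genes, which load the mitochondrial transfer RNAs, 5 fell and 0 rose, TyrRS-m by most (-3.67 ± 0.18), with AsnRS-m (-2.12 ± 0.20), TrpRS-m (-2.80 ± 0.30) and CysRS-m (-1.06 ± 0.12).

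Of 6 tested translation factor genes of the mitochondrion 2 fell, mEFTu2 (-1.83 ± 0.18) and the initiation factor gene mIF2 (-1.44 ± 0.27). Over all tested genes 19.9% fell, and an excess over that share was not tested for these short lists. The elongation factor genes mEFTu1 (0.24 ± 0.14), mEFG1 (0.01 ± 0.13) and mEFTs (-0.38 ± 0.18) and the release factor gene mRF1 (-0.98 ± 0.50) did not pass. Of 6 tested genes in a mixed list of assembly, RNA and transcription termination factors 4 fell. These were mTTF (-1.94 ± 0.18), CG7488 (-1.19 ± 0.15), mTerf5 (-1.27 ± 0.26) and Mrm2 (-0.72 ± 0.20), while bsf (0.39 ± 0.30) and mTerf3 (0.0 ± 0.17) did not pass. Among 3 other genes for transcription of the mitochondrial genome mtTFB2 fell (-1.88 ± 0.24), the RNA polymerase gene PolrMT rose (1.33 ± 0.33, adjusted p = 0.021), and TFAM did not pass (-0.35 ± 0.12). Of 22 tested genes with symbols of the cytosolic large subunit (RpL or RpLP) 0 fell and 0 rose. They include RpL7-like, RpL24-like and RpLP0-like, which are not taken here as subunit genes, and the other 19 had changes of -0.17 to 0.07 with a median of -0.02. For 17 of these 19 the mean log2 level was over 15, close to the highest value in the table (16.3), where a change may be understated, and this was not tested.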

How the data were processed

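The data are 10 arrays. Per the labels each sample gave 1 array, and per the submitters' processing notes the authors made the deposited log2 expression values with GCRMA (background correction, normalisation between arrays, 1 value per probe set). Neither its version nor a genome build is given in the sources used here. Samples were grouped by source name. For M2 replicate 3 the title reads M3 but the source name reads M2, which was followed. The series' design text calls the replicates biological.

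Of 18952 probe sets 183 controls were left out, and 7298 with a mean of at least 4 entered limma (version 3.58.1, R 4.3.3: lmFit and eBayes on 4 group means of 10 arrays, two-sided, Benjamini-Hochberg over all tested probe sets, threshold 0.05). The array set comparison used 9 arrays. The procedure was tested on simulated data, in which 38% of 2-fold and 86% of 4-fold changes passed. Noise there was drawn independently for each array, without the deviations that the sets of arrays share here. Probe sets with 1 gene numbered 13647, with several 402 and unnamed here 4720. Symbols came from the RefSeq annotation of Release 6. Members, lists and alternatives were chosen with earlier results of these data known. Genes named with every array were the 10 largest falls, the 8 smallest changes and the extremes of M2 minus M1. mRpL3 was added after its values were seen. From other lists up to 4 called genes were named, and the uncalled genes of the translation factor, assembly and transcription lists were named after their values were seen. The smallest and highest correlations between same-numbered arrays, 0.34 and 0.93 over 9 pairs, led to a fit with the number as a block. These values do not show pairing by number between knockdown and GST. Among replicates 1 and 2, GST and knockdown arrays correlated at 0.34 to 0.488 for equal numbers and 0.545 to 0.675 for different numbers. For M2 with M1, equal numbers gave 0.788 and 0.834, and different numbers 0.699 and 0.748. Blocking by the 2 sets of arrays instead also called 39 members lower with knockdown. Planned motif and strand analyses were not run, since sequences and strands were not used here. Figures were drawn with matplotlib 3.10.9.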

Additional observations from a re-analysis of the deposited data

How the results depend on the processing

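The comparisons were recomputed, where each alternative allows, with no filter on the mean level, a mean of at least 6, quantile normalisation, median centring, spike-in centring with and without GST replicate 2, trended and robust variances, array weights, only the compared groups in the fit, GST and the array without dsRNA pooled, blocks, replicates 1 and 2 alone, the mean of all probe sets of a gene, a threshold of 0.01, and without each array in turn. The comparison of array sets was not run with blocks, pooled controls, only the compared groups or replicates 1 and 2 alone, and that of the array without dsRNA not with the replicate block, pooled controls or replicates 1 and 2 alone. The count of members lower under knockdown was 22 to 39 in all of these except spike-in centring. With the replicate number as a block 39 members fell with knockdown, 38 with M2 and 36 with M1, and all 33 calls of the unblocked fit were kept.

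After spike-in centring 1 member passed with knockdown, 1 with M2 and 1 with M1, and 0 differed between the array sets. The member medians were then -0.971 for knockdown, -0.765 for M2, 0.368 for M2 minus M1, 1.726 without dsRNA and -0.889 between array sets. With GST replicate 2 also left out they were -1.85 for knockdown, -1.652 for M2, -2.046 for M1, 0.368 for M2 minus M1, 0.882 without dsRNA and 0.296 between array sets, where 0 passed. The median over all tested probe sets moved to 0.182 with spike-in centring and to -0.646 without GST replicate 2. Pooling the array without dsRNA with GST gave -1.312 for M2. At a threshold of 0.01, 17 members fell with M2 (7.8% of all probe sets), 17 with M1 (8.45%), and 0 differed between array sets. The causes were not tested.

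Leaving out 1 array gave medians of -1.339 to -1.009 for knockdown and -1.345 to -1.008 for M2, the highest without GST replicate 3, and 0 to 4 members that differed between array sets, a test that cannot be fitted without GST replicate 3. Only genes that did not pass changed sign. Changes of sign after centring follow a shift applied to all probe sets alike and do not bear on single genes. mRpL30 was 0.017 (0.044 for M1) after median centring, 0.156 (0.355 for M2) after spike-in centring, and -0.157 to 0.13 with 1 array left out (-0.255 to 0.107 for M2, -0.217 to 0.152 for M1). M2 values after spike-in centring, where the median of all probe sets was 0.422, were 0.157 for mRpL22, 0.048 for mRpL4 and 0.074 for mRpL45. Without GST replicate 2 as well, where the median of all probe sets was -0.646 (-0.89 for M1, -0.4 for M2), mRpL28 was -0.285 (-0.5 for M1, -0.07 for M2) and mRpL42 -0.544 (-0.671 for M1, -0.417 for M2). For M2, mRpL42 was -0.025 with array weights, -0.061 with pooled controls and -0.016 in replicates 1 and 2 alone. With 1 array left out mRpL42 was -0.007 to 0.29 (-0.189 to 0.196 for M2, -0.036 to 0.384 for M1).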

Other observations

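Genes next to the mRpL genes were also examined. The annotation gives 88 adjacent protein-coding genes, of which 57 were tested once mitochondrial ribosomal genes were left out. Of these 18 fell with knockdown (31.6%) and 0 rose, with a median of -0.27, against 19.9% and 7.38% of all 5906 tested genes. Neighbours whose gene span overlaps an mRpL gene fell in 11 of 20 cases, and the others in 7 of 37. Probe sets of overlapping genes may share sequence, and this was not tested. Examples chosen after their values were seen, all of which overlap the member, were CG4278 with mRpL4 (-2.01 ± 0.13, SE), Gmd with mRpL28 (-1.09 ± 0.18) and CG1750 with mRpL32 (-2.95 ± 0.24). The mRpL4 and mRpL28 genes themselves did not pass in the fit without a block. In the limma fit blocked by replicate number the adjusted p was 0.0414 for mRpL4, which was lower, and 0.113 for mRpL28.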
